A study of Mus musculus with 24 samples.

Results

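Venus-positive cells of the duodenum were compared directly with Venus-positive cells of the colon, over all genes. The libraries were chosen by their labels, which name the tissue and the sort, and numbered 3 for the duodenum and 3 for the colon, 6 of the 24 libraries of the series. The cells came from mice of a Guca2a-Venus strain, backcrossed to C57Bl6J, that carries a bacterial artificial chromosome in which the fluorescent protein Venus takes the place of the coding sequence of *Guca2a*, the gene of the peptide guanylin. The strain descends from 1 founder line, and every library used here, positive or negative, came from animals with this transgene and an intact *Guca2a*. Epithelium of the upper small intestine, or of the whole colon with the rectum, was digested to single cells, and dead cells, debris and cells with the leukocyte antigen CD45 were gated out before cells of high Venus fluorescence were collected. The Venus-negative cells of the same tissues, 3 libraries for each, served for the comparison of positive with negative cells. Total RNA was amplified and sequenced in single reads. The labels do not name the mouse of any library, so p values measure the spread between libraries. That spread was estimated within groups in 1 fit of all 24 libraries, those of the jejunum and ileum included.

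Reads counted on genes ranged from 7458616 to 11165593 in the positive libraries of the duodenum and from 13954074 to 18403292 in those of the colon, so low levels were less certain in the duodenum. Mitochondrial genes took 32.3% to 46.6% of the counts on genes in the duodenum and 68.6% to 77.9% in the colon. Reads outside annotated genes took 19.5% to 24.8% and 13.1% to 15.1% of all reads, counted on genes or not. All 7 mitochondrial protein genes tested were lower in the duodenum, by log2 fold changes between -1.90 and -1.22. The part of these differences in the results below was not tested. Reads were amplified and carry no molecular identifier, and intervals and bounds on counts therefore cover counting error only.

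Goblet cells make the gel-forming mucin Muc2, which is packed in granules after dense glycosylation and forms the mucus layer, thin and penetrable in the small intestine and layered in the colon. Paneth cells sit at the base of small intestinal crypts and secrete lysozyme and defensins, and the mouse colon lacks them. Regional identity of the epithelium is held by transcription factors such as Gata4 in the proximal small intestine, and by the Hox genes along the body axis. Guanylin and uroguanylin are peptides that bind the receptor guanylate cyclase C on epithelial cells and drive secretion of chloride and bicarbonate through cyclic GMP.

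The goblet marker was enriched in the positive cells of both ends. *Muc2* (ENSMUSG00000025515, chr7:141690340-141754693, plus strand, GRCm38) stood at 2113 ± 69.9 CPM in the positive cells of the duodenum and 490 ± 115 CPM in those of the colon (SD, n = 3 for every mean ± SD given here), beside 8.49 and 88.5 CPM in the negative cells. CPM denotes counts relative to the TMM-adjusted size of the library. In the jejunum and ileum, positive cells held 158 ± 49.3 and 373 ± 157 CPM of *Muc2*, so the mean of the colon lay above that of the ileum by less than their spread. *Lyz1* (ENSMUSG00000069515, chr10:117287797-117292868, minus strand), the lysozyme of Paneth cells, stood at 10437 ± 5355 CPM in the duodenum and 6.63 ± 3.89 CPM in the colon. The positive cells of the duodenum therefore carried goblet and Paneth products together, and those of the colon carried the goblet marker without the Paneth marker. In such bulk samples fewer cells of a type and less RNA per cell cannot be told apart.

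The 250 bases before the start site are shown for 5 secreted products on which the comparison turns: the Paneth lysozyme *Lyz1* and the lectin *Itln1*, higher in the duodenum, the pentraxin *Mptx1*, higher in the colon, the mucin *Muc2*, and the goblet disulfide isomerase *Agr2*, whose levels overlapped between the ends. The sequences are from RefSeq (GRCm38.p6), read 5′ to 3′ on the strand of the gene, at chr10:117292869-117293118 (minus) for *Lyz1*, chr1:171535295-171535544 (minus) for *Itln1*, chr1:174330268-174330517 (plus) for *Mptx1*, chr7:141690090-141690339 (plus) for *Muc2* and chr12:35992675-35992924 (plus) for *Agr2*. The RefSeq start of *Agr2* lies 18 bases inside the gene as placed by GENCODE, so its window holds the first 18 bases of that gene. Capitals mark the GATA-type letters AGATAA and the CDX-type letters TTTATNG, on either strand.
Lyz1: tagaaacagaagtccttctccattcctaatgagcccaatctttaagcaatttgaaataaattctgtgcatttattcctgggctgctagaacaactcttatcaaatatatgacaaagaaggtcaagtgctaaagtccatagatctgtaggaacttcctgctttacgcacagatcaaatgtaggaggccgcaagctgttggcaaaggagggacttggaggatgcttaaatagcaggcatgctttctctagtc
Itln1: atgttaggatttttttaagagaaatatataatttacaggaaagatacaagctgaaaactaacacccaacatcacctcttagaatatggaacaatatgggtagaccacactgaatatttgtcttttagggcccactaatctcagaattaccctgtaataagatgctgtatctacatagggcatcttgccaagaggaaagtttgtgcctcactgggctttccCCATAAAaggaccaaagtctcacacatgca
Mptx1: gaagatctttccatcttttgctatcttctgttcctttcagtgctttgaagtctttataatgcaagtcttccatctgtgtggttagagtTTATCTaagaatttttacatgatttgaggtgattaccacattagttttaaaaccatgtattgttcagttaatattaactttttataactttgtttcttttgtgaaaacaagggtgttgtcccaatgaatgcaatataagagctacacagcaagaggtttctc
Muc2: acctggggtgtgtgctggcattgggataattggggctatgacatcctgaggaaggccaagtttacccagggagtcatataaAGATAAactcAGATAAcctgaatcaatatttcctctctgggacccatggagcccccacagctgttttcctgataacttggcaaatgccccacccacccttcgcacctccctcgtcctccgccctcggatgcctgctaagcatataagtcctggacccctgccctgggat
Agr2: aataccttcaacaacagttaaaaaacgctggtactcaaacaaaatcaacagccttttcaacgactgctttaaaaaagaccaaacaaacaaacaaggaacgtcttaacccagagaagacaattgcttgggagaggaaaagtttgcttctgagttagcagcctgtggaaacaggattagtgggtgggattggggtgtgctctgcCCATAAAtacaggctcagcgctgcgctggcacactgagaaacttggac

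The *Muc2* window held 2 matches to AGATAA and the *Mptx1* window 1, while those of *Itln1* and *Agr2* each held 1 match to TTTATNG and that of *Lyz1* held neither. Of 10365 promoters of tested genes, 6.14% held AGATAA, against 9.56% of the 638 of genes higher in the duodenum and 6.69% of the 718 of genes higher in the colon. TTTATNG stood in 6.48% of all, 11.9% of the duodenum genes and 7.38% of the colon genes, and in 5 of the 11 promoters of the Paneth list, several of which belong to near-identical defensin copies. The HNF4-type letters CAAAGTC were found in 3.45%, 5.96% and 3.2%, and the FOXA-type letters TGTTTAC in 2.31%, 2.04% and 4.46%, in the same order. The ATOH1-type letters CAGNTG stood in 38.2%, 47.0% and 44.2%, and the HNF1-type letters GTTAATNA in 1.51%, 2.82% and 1.81%. These shares describe letters in 250 bases, and none of them was tested as binding.

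Of 15044 genes tested, 879 were higher in the positive cells of the duodenum (5.84%) and 982 in those of the colon (6.53%), together 12.4%, by edgeR's quasi-likelihood test at an adjusted p of 0.05. The libraries of the duodenum and colon did not overlap in 844 of the 879 and 967 of the 982, and in 31.3% of all genes tested. A difference of at least 4-fold was fitted for 475 and 602 of them. No count at all was found in the colon for 52 of the duodenum genes, and none in the duodenum for 133 of the colon genes. The balance between the ends depended on the scaling and on other choices. With library size alone, without TMM, 1451 genes were higher in the duodenum and 626 in the colon. The median of all genes then moved from -0.01 to 0.37 on the log2 scale. The duodenum also had more such genes with at least 10 counts in every library compared (621 and 552). The same held with only the groups compared (1169 and 1096) and with protein-coding genes outside the mitochondrial genome (924 and 911). It held too without duodenum replicate 1 or 2 of the positive cells. In the other settings run the colon had more, as in the main fit. The duodenum differed from the jejunum in 4989 genes (33.2%) and from the ileum in 3838 (25.5%) in positive cells, and the colon from the jejunum in 5102 (33.9%) and from the ileum in 3260 (21.7%). The jejunum and the ileum differed in 775 (5.15%). These pairs share libraries, and their counts were not compared by a test.

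**Figure D1:**
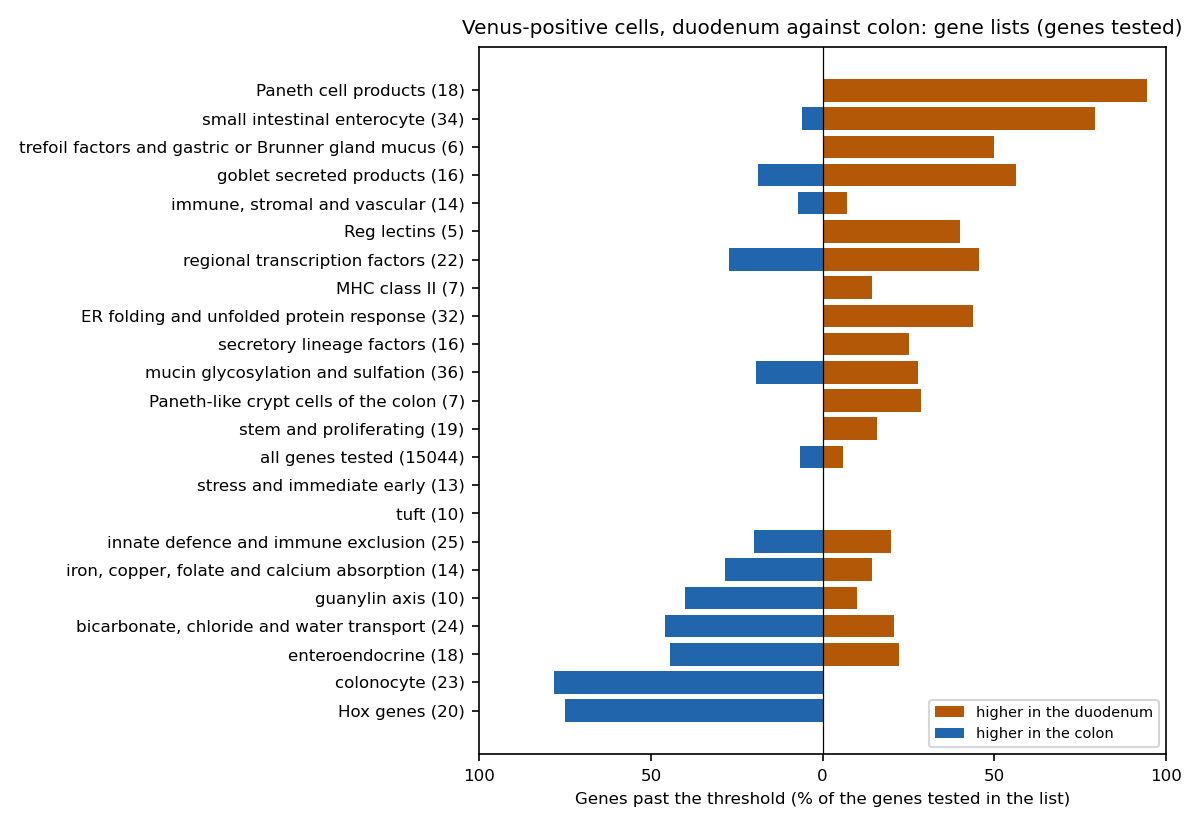
Share of the tested genes of each list (rows, number tested in brackets) that were past an adjusted p of 0.05 in positive cells, as bars to the right for genes higher in the duodenum and to the left for genes higher in the colon, in percent. Paneth products (17 of 18) and enterocyte genes (27 of 34) fill the right side, and colonocyte (18 of 23) and Hox genes (15 of 20) the left.

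The ends shared a set of genes set apart from the negative cells beside them. Of all 15044 genes, 1336 were higher in positive than in negative cells in the duodenum and 1400 in the colon. In both, 537 were higher (3.57% of all genes), which is 40.2% of the first list and 38.4% of the second. Of the 537, 81 were also higher in the duodenum than in the colon and 47 higher in the colon, beside 5.84% and 6.53% of all genes. For 207 of them (38.5%, or 1.38% of all genes) the 95% interval of the log2 fold change between the ends lay within 2-fold in either direction. Over all genes tested, 19.4% had such an interval. The other 202 neither passed the test nor had an interval that narrow, so their levels at the ends were not resolved.

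The genes at a common level with the largest mean rise over negative cells included secretory, transport and differentiation genes. *Agr2* (ENSMUSG00000020581, chr12:35992907-36004087), which folds Muc2, stood at 1514, 1871 and 848 CPM in the duodenum and 1107, 1516 and 1544 CPM in the colon. Its log2 fold change was 0.02 (95% interval -0.77 to 0.81), and it rose over negative cells by 4.78 in the duodenum and 2.04 in the colon on the log2 scale. The libraries of *Agr2* interleave between the ends, which differ in *Muc2* itself.

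*Krt20*, a keratin of mature surface epithelium, was at 427 ± 50.7 CPM in the duodenum and 405 ± 70.3 CPM in the colon (log2 fold change 0.08, interval -0.63 to 0.79). *Mxd1*, an antagonist of Myc in differentiating cells, was at 247 ± 27.7 and 261 ± 66.0 CPM, and *Klf4*, a transcription factor of goblet cell maturation, at 140 ± 23.8 and 164 ± 12.3 CPM. *Muc3a*, a membrane-bound mucin, was at 34.4 ± 6.66 and 28.6 ± 5.25 CPM, and *Slc26a2*, the sulfate carrier that feeds mucin sulfation, at 171 ± 45.8 and 224 ± 29.7 CPM. The remaining members of the 12 were *Gsn* and *Rhoc*, which act on actin, the hexokinase *Hk2*, the secreted *Fam3b*, *Slc22a23* and *Itprid2*, with fitted differences between -0.33 and 0.31. Library values of all these genes overlapped between the ends.

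**Figure D2:**
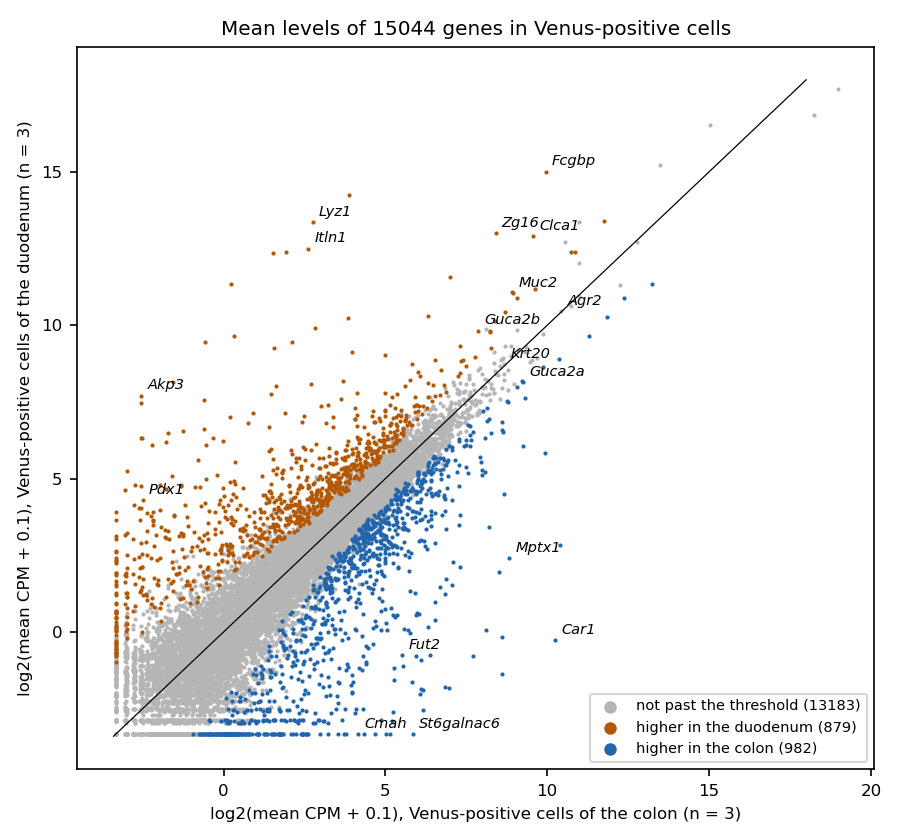
Mean level of each of 15044 genes in positive cells of the duodenum (vertical axis) against the colon (horizontal axis), as log2 of the mean CPM plus 0.1, with the 879 and 982 genes past the test in colour and the line of equal levels drawn. *Agr2* and *Krt20* lie on the line, *Fcgbp*, *Zg16* and *Lyz1* above it, and *Car1* and *St6galnac6* below it.

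Of the 16 secreted goblet products in the list, 9 were higher in the duodenum and 3 in the colon (beside 5.84% and 6.53% of all genes), with a median log2 fold change of 2.14 beside -0.01 over all genes. *Muc2* stood at 2033, 2154 and 2154 CPM in the duodenum and 622, 433 and 414 CPM in the colon. It was higher in the duodenum by 2.11 ± 0.42 (log2, SE), with an adjusted p of 5.52e-04 and no overlap of libraries.

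*Fcgbp* (ENSMUSG00000047730, chr7:28071236-28120862), a large mucus protein that binds to Muc2, stood at 33335, 33194 and 32395 CPM in the duodenum and 1251, 695 and 1033 CPM in the colon (5.05 ± 0.49 on the log2 scale, adjusted p = 4.78e-09). *Zg16*, a lectin of the mucus that binds Gram-positive bacteria, followed with 9747, 7620 and 7079 CPM against 309, 193 and 512 CPM (4.59 ± 0.45, 8.41e-09). Both proteins belong to the mucus layer. *Tff3*, the trefoil peptide of goblet cells, differed by 4.58 ± 0.43, and *Clca1* (ENSMUSG00000028255, chr3:145003817-145032776), a metalloprotease that expands the mucus, by 3.34 ± 0.44, from 7617 ± 624 to 754 ± 130 CPM. *Spink4*, a protease inhibitor of goblet granules, differed by 2.17 ± 0.52, and the calpain *Capn9* by 3.47 ± 0.68.

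*Itln1* (ENSMUSG00000038209, chr1:171518122-171535294) and *Ang4*, which Paneth cells secrete as well, were higher in the duodenum by 9.91 ± 1.04 and 3.98 ± 0.95. The 3 goblet products higher in the colon were *Mptx1* (ENSMUSG00000026531, chr1:174330518-174332873), *Sval1* and *Guca2a*. *Mptx1*, a mucosal pentraxin, stood at 253, 749 and 351 CPM in the colon and 7.68, 4.43 and 3.49 CPM in the duodenum (-6.44 ± 0.84, adjusted p = 1.34e-06). Its libraries did not overlap between the ends. *Sval1*, a seminal vesicle antigen-like gene, was at 8.26, 11.7 and 43.2 CPM in the colon and 0.621 ± 0.261 CPM in the duodenum (-5.07 ± 0.75), and its colon libraries were uneven. The 4 products that did not pass were *Agr2*, *Muc13*, *Best2* and *Retnlb*. *Retnlb*, an antibacterial goblet protein, was high in 1 library of each end, numbered 2 at both, with 0.716, 577 and 5.17 CPM in the duodenum and 30.03, 513 and 25.7 CPM in the colon.

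**Figure D3:**
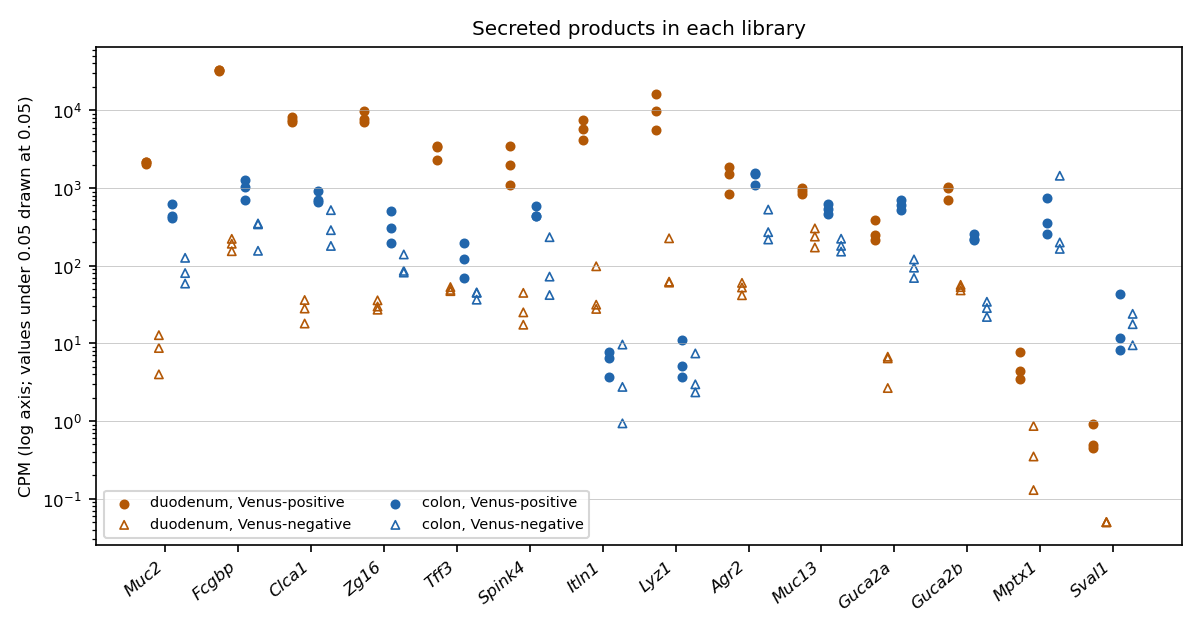
CPM (log axis) of 14 secreted products in each library, 3 points per group, with circles for positive and triangles for negative cells, the duodenum in orange and the colon in blue. For *Muc2*, *Clca1* and *Zg16* the duodenum circles lie above the colon circles while the duodenum triangles lie below the colon triangles.

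Relative to *Muc2*, most genes lay on the colon side, with *Muc2* itself higher in the duodenum. With counts divided by the *Muc2* count of each library, 75.9% of all genes tested did not overlap with the colon higher, and 1.92% with the duodenum higher. Of the other 15 goblet products 6 did not overlap with the duodenum higher (*Fcgbp*, *Clca1*, *Zg16*, *Tff3*, *Itln1* and *Capn9*), 6 did not overlap with the colon higher, a share below that of all genes, and *Spink4*, *Retnlb* and *Ang4* overlapped. For 3 libraries against 3 an exact two-sided permutation test cannot go below p = 0.1, which is the value of 11 of these 12, and *Best2*, without counts in the duodenum, was not tested. *Fcgbp* had 15040 to 16400 counts per 1000 of *Muc2* in the duodenum and 1605 to 2492 in the colon (log2 difference 2.96). *Ang4* had 381 to 907 in the duodenum and 43.7 to 408 in the colon (exact p = 0.2).

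With each library scaled by its *Muc2* count in the edgeR fit, the median of all genes moved to -2.13. On this scale *Itln1* (7.76), *Fcgbp* (2.94), *Zg16* (2.42), *Tff3* (2.41), *Ang4* (1.77) and *Clca1* (1.22) were still higher in the duodenum. The libraries of *Ang4* overlapped when set per *Muc2* count, and *Capn9* no longer passed (1.34, adjusted p = 0.294). *Spink4* stood at -0.01 and *Muc13* at -1.38, above the median of all genes, *Agr2* at -2.17 and *Retnlb* at -2.25, near it, and *Guca2a* at -3.29, below it. With the sum of *Muc2*, *Clca1*, *Fcgbp* and *Spink4* as the reference, 87.5% of all genes did not overlap with the colon higher and 1.02% with the duodenum higher, and *Clca1* (-0.71) and *Capn9* (-0.60) had the opposite sign. *Fcgbp* and *Itln1* were higher in the duodenum against either reference. The sum is not a separate reference for *Fcgbp*, which is itself its largest part at both ends.

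Among 16 transcription factors of the secretory lineage, 4 were higher in the duodenum (25%, beside 5.84% of all genes) and 12 did not pass, with a median of 0.85. *Atoh1*, which commits cells to the secretory fate, stood at 79.8, 81.6 and 75.6 CPM in the duodenum and 15.4, 18.1 and 21.9 CPM in the colon (2.09 ± 0.48, adjusted p = 2.69e-03). *Foxa3* differed by 2.14 ± 0.46 and *Xbp1*, which drives the secretory apparatus, by 1.44 ± 0.28. *Bhlha15*, a factor of granule maturation, differed by 2.90 ± 0.95, a call that was lost with any 1 of the 6 positive libraries left out (2.74 to 3.12).

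*Spdef*, which matures goblet and Paneth cells, was at 33.0 ± 7.52 CPM in the duodenum and 25 ± 1.61 CPM in the colon (0.40 ± 0.42, adjusted p = 0.621). *Gfi1*, which keeps secretory cells from the endocrine fate, had 8.69 ± 1.41 and 2.56 ± 0.963 CPM (1.76 ± 0.74, 0.127). *Creb3l1*, a membrane-bound factor of secretory capacity, leaned to the colon without passing, at 51.9 ± 7.33 against 74.5 ± 3.77 CPM (-0.52 ± 0.27). The factors thus differed by less than the mucus products *Fcgbp* and *Zg16* in the fitted values.

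Of 32 genes of protein folding in the endoplasmic reticulum and the unfolded protein response, 14 were higher in the duodenum (beside 5.84% of all genes) and 18 did not pass, with a median of 0.87. The 14 became 6 without colon replicate 1 or colon replicate 2 and 8 without duodenum replicate 2. *P4hb*, a protein disulfide isomerase, stood at 1033, 1274 and 1077 CPM in the duodenum and 311, 279 and 410 CPM in the colon (1.76 ± 0.38, adjusted p = 1.35e-03). *Sdf2l1*, *Pdia6* and *Hyou1*, which assist folding, differed by 1.78 ± 0.44, 1.77 ± 0.43 and 1.61 ± 0.33. These genes encode chaperones and isomerases. *Ern2*, the stress sensor of goblet cells, differed by 1.67 ± 0.45, and its call was lost without duodenum replicate 1 (1.44) or colon replicate 2 (1.58). *Hspa5*, the main chaperone of the compartment, had 457 ± 61.2 and 163 ± 60.6 CPM (1.49 ± 0.43), and its call was lost without colon replicate 1 (1.46), colon replicate 2 (1.27) or duodenum replicate 2 (1.39). *Canx* was at 190 ± 45.8 and 192 ± 29.4 CPM, with a fold change of -0.02 ± 0.31.

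Genes listed for the glycosylation and sulfation of mucins changed in both directions. The list also holds enzymes known mainly for other glycans, among them *Fut8* and *St6gal1* (N-glycans) and *B4galnt1* (gangliosides). Of 36 tested, 10 were higher in the duodenum and 7 in the colon, 47.2% against 12.4% over all genes, with a median of 0.46. Of 8 *Galnt* genes tested 6 were higher in the duodenum, and *Galnt4* (0.40, adjusted p = 0.369) and *Galnt12* (1.12, 0.075) did not pass by edgeR's test. *Galnt5*, *Galnt1*, *Galnt3*, *Galnt6*, *Galnt7* and *Galnt10* attach the first sugar, N-acetylgalactosamine, and were higher by 0.88 to 2.29. *Galnt5* stood at 83.8, 71.0 and 49.9 CPM in the duodenum and 12.0, 14.9 and 15.2 CPM in the colon (2.29 ± 0.46, adjusted p = 6.06e-04). *C1galt1c1*, the chaperone of the core 1 enzyme, differed by 1.76 ± 0.42, *B4galnt1* by 1.52 ± 0.30, *Fut8* by 1.24 ± 0.27 and the sulfotransferase *Chst4* by 2.20 ± 0.46.

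The 7 genes higher in the colon encode sugar transferases. *St6galnac6* (ENSMUSG00000026811, chr2:32599709-32620806), a sialyltransferase, had 54.8, 62.5 and 54.1 CPM in the colon and no count in any duodenum library, so it was at least 588-fold higher in the colon (bound set at 3 counts over the pooled size of the 3 libraries without a count, here those of the duodenum, adjusted p = 4.43e-10). *Fut2*, the fucosyltransferase of the secretor type, had 36.8, 56.2 and 45 CPM in the colon and 0.307, 0.492 and 0.675 CPM in the duodenum (-6.54 ± 1.24). *Gcnt1*, which makes the core 2 branch, differed by -5.37 ± 0.87, *B3galt5* by -3.59 ± 0.87, and the sialyltransferases *St6gal1* and *St3gal3* by -3.35 ± 0.71 and -3.33 ± 0.58. *B3gnt6*, the core 3 enzyme, had 8.62 ± 0.743 CPM in the colon and 0.519 ± 0.582 in the duodenum (-3.98 ± 1.17), and its call was lost without colon replicate 1 (-3.94), duodenum replicate 1 (-3.83) or duodenum replicate 3 (-3.44).

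*Cmah* (ENSMUSG00000016756, chr13:24327404-24477377), which hydroxylates the sialic acid Neu5Ac, lies outside the list and had 19.4, 18.7 and 14.8 CPM in the colon and no count in the duodenum, at least 180-fold higher. It was also without counts in the negative cells of the duodenum and stood at 1.05 CPM in those of the colon. The enzymes *C1galt1* (0.59 ± 0.28), *Gcnt3* (0.58 ± 0.31) and *B4galnt2* (-0.60 ± 0.25) did not pass. Their libraries did not overlap between the ends, as in 31.3% of all genes, so equal levels are not shown.

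**Figure D4:**
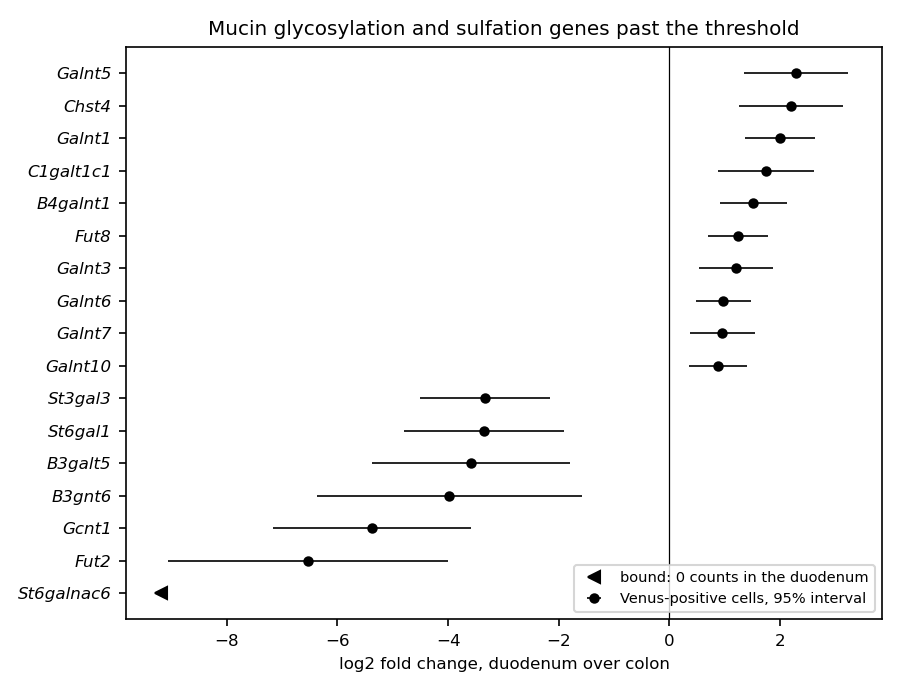
Log2 fold change of the duodenum over the colon (horizontal axis) in positive cells for the 17 glycosylation and sulfation genes past the threshold (rows), as points with 95% intervals, and for *St6galnac6* as a bound because the duodenum had 0 counts. The *Galnt* genes lie on the duodenum side between 0.88 and 2.29, and *Fut2*, *Gcnt1* and *B3gnt6* lie on the colon side.

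Paneth cell products had the highest median of the lists. Of 18 tested, 17 were higher in the duodenum (beside 5.84% of all genes), or 8 where only genes with 10 counts in each library compared were tested, with a median of 9.24, or 8.34 with a gene without counts in the colon set at its bound. *Lyz1* stood at 9642, 16145 and 5524 CPM in the duodenum and 11.0, 3.68 and 5.16 CPM in the colon (10.62 ± 0.97, adjusted p = 1.68e-09). *Defa24*, a cryptdin, stood at 22489, 26034 and 9773 CPM against 23.2, 9.34 and 11.1 CPM. The libraries did not overlap, and within the duodenum replicate 3 had the lowest level of both.

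*Mmp7*, the protease that activates the defensins, had 610 ± 445 and 2.83 ± 1.47 CPM (7.74 ± 0.70). *Pla2g2a*, the antibacterial phospholipase, had 523 counts in the duodenum and 3 in the colon, a ratio of 241 (exact interval 81.9 to 1171). *Wnt3*, a Paneth signal to stem cells, had 2.56, 8.86 and 6.86 CPM in the duodenum and no count in the colon, at least 89.3-fold higher. *Guca2b*, which the list also holds, was the member with the smallest passing change, and the sensor *Nod2* did not pass (0.880 ± 0.256 and 1.48 ± 1.39 CPM). Defensin genes are near-identical copies whose reads the counting could have split, so their separate levels are uncertain.

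The most abundant Paneth products were compared by their level in other cells as a share of that in the positive cells of the duodenum. In the colon, *Lyz1*, *Defa24*, *Defa30*, *AY761184* and *Gm14851* stood at 0.0418% to 0.0749% of their duodenum level and *Itln1* at 0.104%, and in the negative cells of the duodenum these 6 stood at 0.908% to 1.25%. Of 21 called genes at 1000 CPM or more in the duodenum, these 6 were under 0.2% in the colon. In the other direction *Car1* stood at 0.0604% of its colon level in the duodenum. The source of these reads was not tested. Of the 7 genes named for Paneth-like cells of the colon, *Dll1* (3.80 ± 0.46) and *Dll4* (3.41 ± 0.37), ligands of Notch, were higher in the duodenum (beside 5.84% of all genes) and 5 did not pass. *Kit*, which marks the Paneth-like cells of the colon, was at 20.9 ± 3.47 and 25.5 ± 2.37 CPM, and *Reg4* at 202 ± 46.3 and 83.6 ± 75.3 CPM.

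Genes of absorptive cells separated the ends as well. Of 34 genes of small intestinal enterocytes 27 were higher in the duodenum and 2 in the colon (beside 5.84% and 6.53% of all genes), with a median of 3.25, and of 23 colonocyte genes 18 were higher in the colon, with a median of -3.83. *Akp3*, an intestinal alkaline phosphatase, had 118, 194 and 314 CPM in the duodenum and 3 counts in all in the colon, a ratio of 2902 (exact interval 993 to 14076). *Apoa4*, an apolipoprotein of chylomicrons, had 1089, 732 and 1827 CPM against 16.6, 13.7 and 12.1 CPM (6.42 ± 0.61, adjusted p = 3.20e-09). *Slc2a2*, the sugar exit carrier, *Fabp1*, a fatty acid carrier, and *Lct*, lactase, were higher by 6.99 ± 0.56, 6.96 ± 0.48 and 6.14 ± 0.54. *Mep1a*, a brush border protease in the enterocyte list, was higher in the colon, with 144, 159 and 109 CPM against 3.99, 3.53 and 6.75 CPM (-4.86 ± 0.36), as was *Cyp2c65* (-1.74 ± 0.36).

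*Car1* (ENSMUSG00000027556, chr3:14766216-14808368), a carbonic anhydrase of colonocytes, had 1346, 1107 and 1173 CPM in the colon and 1.13, 0.164 and 0.899 CPM in the duodenum (-10.74 ± 1.41, adjusted p = 1.31e-06). *Slc5a8*, a carrier of short-chain fatty acids, had 68.6 ± 16.9 and 0.426 ± 0.128 CPM (-7.32 ± 0.63), and *Saa1*, a serum amyloid, differed by -8.69 ± 1.05. *Atp12a*, the proton pump of the distal colon, had 14.1, 8.21 and 19 CPM in the colon and no count in the duodenum, at least 143-fold higher. *Lypd8*, which binds flagella, was at 1566 ± 161 and 1701 ± 319 CPM, and *Krt20* was described above.

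Summed over the list, enterocyte genes took 3490 to 7472 CPM in the positive cells of the duodenum and 3050 to 4335 CPM in its negative cells. Colonocyte genes took 5433 to 6765 CPM in the positive and 1316 to 1782 CPM in the negative cells of the colon. The summed enterocyte level thus overlapped between the sorts of the duodenum, while the colonocyte level of the colon did not. Within the duodenum, replicate 3 was the highest for *Apoa4*, *Akp3* and *Lct* and the lowest for *Lyz1* and *Defa24*.

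Regional transcription factors passed in 16 of 22 cases, 10 higher in the duodenum and 6 in the colon, 72.7% beside 12.4% of all genes. *Gata4* stood at 25.9, 23.3 and 35.9 CPM in the duodenum and 0.849, 1.63 and 1.03 CPM in the colon (4.59 ± 0.39, adjusted p = 3.77e-10). *Onecut2* differed by 9.07 ± 0.72, *Gata5* by 4.52 ± 0.46 and *Hnf4g*, a nuclear receptor of enterocytes, by 2.41 ± 0.37. *Pdx1*, the factor of the pancreas and duodenum, had 615 counts in the duodenum and 3 in the colon, a ratio of 283 (exact interval 96.4 to 1376).

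Among the factors higher in the colon, *Osr2* differed by -7.33 ± 0.57. *Nr1h4*, the bile acid receptor, differed by -1.96 ± 0.29. *Cdx2*, the intestinal homeobox factor, had 24.4 ± 3.84 and 50.1 ± 15.1 CPM (-1.04 ± 0.30), and its call was lost with library size alone (-0.62) and without colon replicate 2 (-0.76), duodenum replicate 1 (-0.99) or duodenum replicate 2 (-0.98). *Cdx1* (-0.32 ± 0.26) and *Hnf4a* (-0.20 ± 0.28) did not pass.

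Of 39 Hox genes 20 were tested, and 15 of these were higher in the colon (beside 6.53% of all genes) and 5 did not pass, with a median of -6.69, or -5.57 with genes without counts set at their bound. The counts were low: summed over the list, Hox genes took 84.8 to 100.7 CPM in the colon and 0.984 to 3.04 CPM in the duodenum. *Hoxb9* had 19.5, 14.9 and 16.2 CPM in the colon and 2 counts in the duodenum (ratio 259, exact interval 71.4 to 2143), *Hoxb13* had 5.79, 8.06 and 24.1 CPM and 1 count, and *Hoxa3* had 5.4, 4.03 and 5.93 CPM and no count, at least 52.9-fold higher. No Hox gene had 10 counts in every positive library of both ends.

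On the guanylin axis the ligands went apart. *Guca2a* stood at 247, 392 and 216 CPM in the duodenum and 515, 612 and 706.4 CPM in the colon (-1.10 ± 0.32, adjusted p = 2.04e-02), although the sort selected for a reporter of this gene, and reads of the transgene are not told apart from it here. The call was lost with library size alone (-0.72) and without duodenum replicate 1 (-1.01), duodenum replicate 3 (-0.94), colon replicate 2 (-1.08) or colon replicate 3 (-0.99). *Guca2b*, the gene of uroguanylin, stood at 698, 990 and 1034 CPM in the duodenum and 218, 215 and 259 CPM in the colon (1.98 ± 0.31, 2.36e-05). The libraries of neither gene overlapped between the ends, and their order was opposite.

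The receptor gene *Gucy2c* was at 68.6 ± 14.0 and 105 ± 18.5 CPM (-0.62 ± 0.26, 0.124), and the chloride channel *Cftr* at 24.2 ± 8.06 and 33.1 ± 6.65 CPM (-0.45 ± 0.37). Downstream, *Prkg2*, the cyclic GMP-dependent kinase of the brush border, was higher in the colon, with 52.9, 50.1 and 36.8 CPM against 11.4, 3.69 and 15.3 CPM (-2.21 ± 0.36, 3.28e-05). The phosphodiesterases *Pde3a* (-2.01 ± 0.41) and *Pde5a* (-1.24 ± 0.24) were higher in the colon too, and the call of *Pde5a* was lost with library size alone (-0.83). Of the 10 genes of the axis 1 was higher in the duodenum, 4 in the colon (2 with library size alone) and 5 did not pass, beside 12.4% of all genes called.

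Among 24 genes of bicarbonate, chloride and water transport, 5 were higher in the duodenum and 11 in the colon (beside 5.84% and 6.53% of all genes). *Slc26a3*, the chloride-bicarbonate exchanger of the colon, stood at 129, 96.2 and 125 CPM in the colon and 5.63, 7.30 and 17.8 CPM in the duodenum (-3.52 ± 0.42, adjusted p = 3.01e-07). The carbonic anhydrases *Car2* (-5.22 ± 0.69), *Car4* (-3.83 ± 0.56) and *Car12* (-2.99 ± 0.45) and the water channels *Aqp8* (-5.68 ± 1.08) and *Aqp4* (-2.75 ± 0.34) went the same way. The exchanger *Slc26a6* (5.47 ± 0.62) and the regulator *Clca4b* (3.87 ± 0.49) were higher in the duodenum. So were the water channels *Aqp3* (5.05 ± 1.27) and *Aqp7* (4.77 ± 0.99), with 3 and 2 counts in the colon. The call of *Aqp3* was lost without duodenum replicate 3 (2.63). *Slc12a2*, the basolateral chloride loader, was at 96.6 ± 18.5 and 95.4 ± 9.68 CPM (0.02 ± 0.38).

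Of 25 genes of innate defence 5 were higher at each end (beside 5.84% and 6.53% of all genes), a balance that depended on the filter, with 1 to 10 higher in the colon over the alternatives. *Ido1*, which degrades tryptophan, had 94.7, 103 and 107 CPM in the duodenum and 2.32, 3.32 and 1.93 CPM in the colon (5.33 ± 0.54, adjusted p = 1.24e-08). The chemokines *Ccl25*, a homing signal of the small intestine, *Ccl9*, *Cxcl16* and *Ccl6* were higher in the duodenum by 3.66 ± 0.31, 3.22 ± 0.53, 2.23 ± 0.53 and 1.76 ± 0.44. The Toll-like receptor genes that were higher in the colon rested on few counts in the duodenum. *Tlr2* had 16.2, 13.1 and 10.6 CPM in the colon and 2 counts in the duodenum (ratio 203, exact interval 55.9 to 1679), *Tlr4* 6.87, 11.4 and 7.29 CPM and 1 count (263, 46.9 to 10415), and the call of *Tlr5* was lost without any 1 of 4 positive libraries (-6.08 to -5.56). *Duox2*, an oxidase of the mucosal surface, had 84.2 ± 44.3 and 10.8 ± 4.30 CPM (-2.96 ± 0.66). *Pigr*, the carrier of IgA into the lumen, was at 843 ± 150 and 936 ± 72.2 CPM (-0.15 ± 0.31).

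Smaller lists added single genes, and their shares are to be read beside the 12.4% of all genes called. Of 14 genes of iron, copper, folate and calcium absorption 2 were higher in the duodenum and 4 in the colon, the latter 1 with library size alone or without duodenum replicate 2 and 2 without colon replicate 2 or duodenum replicate 1. *Cybrd1*, the iron reductase of the duodenal brush border, had 3.71 ± 2.86 CPM in the duodenum and no count in the colon (at least 56.6-fold higher), and *Slc46a1*, the folate carrier, differed by 2.65 ± 0.49. *Atp2b1*, a calcium pump, was higher in the colon (-2.50 ± 0.27), while the calls of *Ftl1*, *Slc39a4* and *Vdr* were each lost with library size alone (-0.64, -0.95 and -0.81). Of 5 Reg lectins *Reg1* (8.67 ± 0.58) and *Reg3a* (2.26 ± 0.56) were higher in the duodenum, and of 7 genes of MHC class II 1, *H2-Ab1* (2.88 ± 0.66), a share of 14.3%, or 1 to 3 over the alternatives. Of 6 tested genes of trefoil factors and gastric or Brunner gland mucus 3 were higher in the duodenum, *Tff3* and, without a count in the colon, *Gkn3* (at least 72.2-fold) and *Pgc* (at least 23.9-fold). Of 3 tested pancreatic acinar genes *Zg16* and *Pnliprp1* were higher in the duodenum and *Cela1* in the colon (-2.88 ± 0.49).

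Over all genes, 133 of those higher in the colon had no count in the duodenum, so that only a bound can be given. Besides *St6galnac6* and *Cmah* they included the cytochrome *Cyp2d34* (ENSMUSG00000094559, at least 360-fold), *Mfap3l* (ENSMUSG00000031647, at least 327-fold), the matrix protein *Thbs4* (at least 267-fold), the interleukin-1 receptor antagonist *Il1rn* (at least 118-fold) and the gasdermin *Gsdmc3* (at least 79.4-fold). *Abca12*, a lipid carrier, had 78.9, 92.2 and 43.9 CPM and 2 counts in the duodenum (ratio 1089, exact interval 301 to 8995). *Plekhh2* also met the rule, but 1 colon library held nearly all of its counts, at 0.618, 1.98 and 1159 CPM, and its call was lost without that library (-2.15) and without any 1 duodenum library (-10.46 to -10.22). Towards the duodenum, genes named by the same rule included *Akp3*, Paneth defensins and the complement regulator *Cfi*, which had 9.01, 21.1 and 15 CPM and no count in the colon (at least 220-fold).

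The same comparison was made in the Venus-negative cells of the 2 ends, and the difference between the sorts was tested. In negative cells 1683 genes differed between the ends (11.2%), 993 higher in the duodenum and 690 in the colon. Of the 879 genes higher in positive cells of the duodenum, 428 were higher there in negative cells too (48.7% of the 879 and 43.1% of the 993) and 25 went the opposite way. Of the 982 higher in the colon, 350 were shared (35.6% of the 982 and 50.7% of the 690) and 19 went the opposite way. The interaction, which tests whether the difference between the ends depends on the sort, passed in 544 genes (3.62%), among them 146 of the 879 and 182 of the 982.

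In negative cells 8 of the 16 goblet products were higher in the colon and 1 in the duodenum, with a median of -2.24. Over all 15044 genes, 690 were higher in the colon and 993 in the duodenum in negative cells. The list counts of negative cells given here are to be read beside these. The interaction passed in 12 of the 16 goblet products (75.0%, beside 3.62% of all genes). *Muc2* was lower in the duodenum in negative cells (-3.38, adjusted p = 2.1e-06) and higher in positive cells, and *Clca1* did the same (-3.58 and 3.34). For *Agr2*, level in positive cells, the negative cells differed by -2.72. The interaction also passed in 9 of 23 colonocyte genes, 5 of 34 enterocyte genes and 3 of 22 regional factors, and in 0 of 20 Hox genes, whose counts were low. Of the enterocyte genes 33 of 34 were higher in the duodenum in negative cells and 27 in positive cells, and *Cyp2c65* was higher in the colon in positive cells (-1.74) and in the duodenum in negative cells (1.87). Of the Hox genes 17 of 20 were higher in the colon in negative cells. Of the glycosylation genes, *Fut2* (-5.16) and *St6galnac6* (-8.71) were higher in the colon in negative cells too, while *Galnt5* (-2.29) and *Chst4* (-1.75) were higher in the colon there and in the duodenum in positive cells. *Slc26a3* differed in positive cells (-3.52) and had a fitted value of 0.23 in negative cells (adjusted p = 0.783, interaction -3.75).

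**Figure D5:**
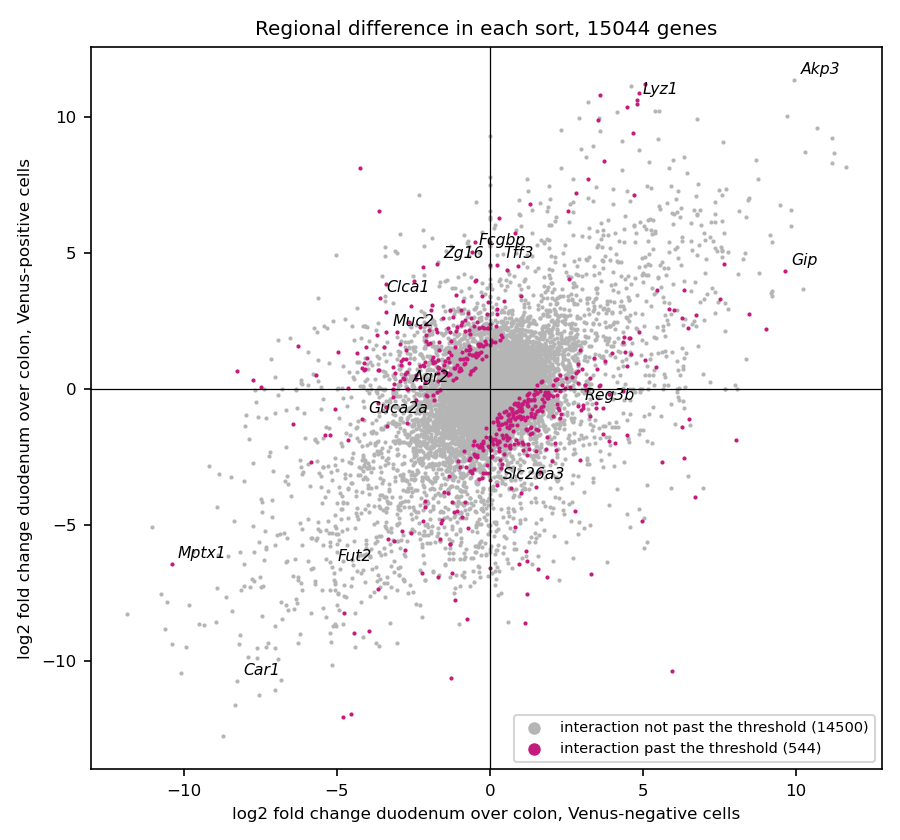
Log2 fold change of the duodenum over the colon in positive cells (vertical axis) against negative cells (horizontal axis) for 15044 genes, with the 544 genes past the interaction test in colour. *Muc2*, *Clca1* and *Zg16* lie at the upper left, *Akp3* in the upper right and *Car1* and *Fut2* in the lower left.

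Markers of other cells moved with some of these results. Enteroendocrine genes, summed, took 39.4 to 84.2 CPM in the positive cells of the duodenum and 170 to 335 CPM in those of the colon, beside 1473 to 1771 and 536 to 864 CPM in negative cells, with 4 of 18 higher in the duodenum and 8 in the colon (beside 5.84% and 6.53% of all genes). *Chga*, a granin of endocrine granules, stood at 8.39, 12.3 and 2.36 CPM against 48.0, 104 and 44.1 CPM (-3.07 ± 0.54), and among the hormones *Gip* was higher in the duodenum (4.34 ± 0.60) while *Pyy* stood at 5.25, 8.28 and 2.39 CPM in the colon without a count in the duodenum. Genes of stem and proliferating cells took 566 to 1177 CPM against 132 to 151 CPM, of which *Olfm4* alone, a crypt base gene of the small intestine, had 423, 765 and 916 CPM against 3.32, 3.54 and 5.87 CPM. Of the 19 genes *Olfm4*, *Smoc2* (2.02 ± 0.37) and *Cdk1* were higher in the duodenum (15.8%, beside 12.4% of all genes called), and the call of *Cdk1* (1.43) was lost without colon replicate 1 (1.40), colon replicate 2 (1.24) or duodenum replicate 2 (1.07). *Mki67* was at 25.1 ± 5.08 and 30.05 ± 0.0646 CPM.

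Genes of immune, stromal and vascular cells took 15.7 to 33.6 CPM in the duodenum and 1.78 to 4.45 CPM in the colon. Most of the former was *Lyz2*, the lysozyme of myeloid cells and a near-identical copy of *Lyz1*, with 10.7, 29.0 and 8.99 CPM, in the same order as *Lyz1*. *Ptprc*, which encodes CD45, was at 0.075 ± 0.130 CPM and *Col1a1* at 0 counts in the duodenum. None of the 10 tuft cell genes and 13 stress and immediate early genes passed edgeR's quasi-likelihood test, beside 12.4% of all genes. In lists this short, 0 calls is near that share. By the same test 3 and 2 of them had an unadjusted p under 0.05, a share not given here for all genes. DESeq2 called 0 of either list. In other edgeR settings, 1 tuft gene was called higher in the colon without a filter on low counts and without duodenum replicate 2 or 3, and of the stress genes 1 was called higher in the duodenum with library size alone, 1 in the colon without the filter and 2 in the colon with only the groups compared. Their medians were -0.25 and -0.13. The part of these cell types in the results above was not tested.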

How the data were processed

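RNA-seq counts were analysed for Venus-positive and Venus-negative cells of the duodenum and colon, 3 libraries each, within the 24 libraries of the series. Per the labels and the study's methods, the authors aligned single reads with STAR (2.5.1) to GRCm38 and deposited raw counts per Ensembl gene, with no normalization. The annotation release and the strand setting of the counting are not given in the sources used here. Rows that name no gene were left out. Of these, the row of reads outside annotated genes alone held 13.1% to 24.8% of all reads in the 6 positive libraries. Of 53465 genes, 53360 received a name from GENCODE M21.

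Counts were tested with edgeR 4.0.16 (R 4.3.3) by its quasi-likelihood test, with TMM factors, filterByExpr (minimum count 10, total 15) and 1 coefficient for each of the 8 groups, which left 15044 genes. P values were adjusted by Benjamini-Hochberg over these genes. The SE of a log2 fold change was derived from the test, as its size over the square root of the F value. The 95% intervals of log2 fold changes were built on that SE. On simulated counts for 14295 genes, the fit recovered 98 of 194 genes changed 4-fold between duodenum and colon, with 3 false among 101 calls. DESeq2 1.42.0 was an alternative, with 16 false among 121 calls in its simulation of 13294 genes, and limma 3.58.1 was loaded by edgeR. Other alternatives were the scaling, the filter, the threshold, the index read as a covariate, the libraries fitted and leaving out each library. Replicate libraries differed beyond counting noise.

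The comparison and 23 gene lists were chosen with earlier results of these data known. Genes were named by rule: the members of each list with the largest changes past the threshold, up to 6 in each direction, with defining markers, the 12 protein-coding genes with the largest change in each direction among those whose libraries did not overlap, the 12 genes at a common level with the highest mean rise over negative cells, the guanylin genes, and the 6 largest interactions in each direction among genes whose libraries did not overlap between the ends in either sort. Other members are given as examples that did not pass. Promoters came from the RefSeq table of GRCm38.p6, in which 10365 tested genes matched. Some genes of the lists enter the counts and are not reported here by name.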

Additional observations from a re-analysis of the deposited data

Results flagged for a closer look

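The difference between duodenum and colon depended on the sort in 544 genes by edgeR's test of the interaction. These are 3.62% of all genes tested. Among the lists with at least 6 such genes they were 12 of 16 goblet products, 11 of 36 glycosylation and sulfation genes, 9 of 23 colonocyte genes, 8 of 18 Paneth products, 7 of 18 enteroendocrine genes and 6 of 16 secretory lineage factors. Some short lists had shares as large, with 3 of 6 trefoil or gland genes, 3 of 7 Paneth-like genes and 2 of 5 Reg lectins.

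Among genes whose libraries did not overlap between the ends in either sort, the 6 with the largest such difference in each direction are given as the log2 fold change of duodenum over colon in positive cells minus that in negative cells. It was 6.92 for *Clca1*, 6.37 for *Itln1* and 6.32 for *Zg16*, all secreted by goblet or Paneth cells, and 6.18 for the defensin-like *Gm14851*. It was 7.22 for *Cfi* and 7.88 for *Gm379*. On the other side it was -9.77 for *Fam43a*, -8.30 for *Zmat4*, -7.52 for the secretogranin *Scg5*, -7.39 for *Mfap3l*, -7.28 for *Cyp2d34* and -6.81 for the interferon-induced *Ifit3*. Where a group had no count, such fitted values depend on the prior count and are not bounds.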

How the results depend on the processing

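No paired analysis was made because the labels carry no replicate number or mouse, and the numbers used here were given in the order of deposit and name libraries only. The count of genes higher in the duodenum (879) was 1451 with library size alone and 632 to 952 when leaving out 1 library. It was 621 with at least 10 counts in every library compared, above the count of the colon in that setting. The count higher in the colon (982) was 552 with at least 10 counts in every library compared, 626 with library size alone, 605 at an adjusted p of 0.01 and 649 to 1069 when leaving out 1 library, the lowest without duodenum replicate 2. Genes whose difference depended on the sort (544) were 827 by DESeq2, 253 at an adjusted p of 0.01 and 318 to 653 when leaving out 1 library, with 318 without colon replicate 2 and 348 without duodenum replicate 1 of the positive cells. Genes higher in positive cells at both ends (537) were 251 at an adjusted p of 0.01 and 341 to 533 when leaving out 1 library, the lowest without colon replicate 2. Those also within 2-fold (207) were 94 to 213. Goblet products not overlapping per *Muc2* count (12) were 8 against the 4-gene reference and 12 to 13 when leaving out 1 library. Scaled by *Muc2* count, which moved the median of all genes to -2.13, the sign changed for *Spink4* (-0.0072), *Retnlb* (-2.25), *Agr2* (-2.17) and *Muc13* (-1.38), and against the 4-gene reference, which includes *Clca1*, for *Clca1* (-0.71) and *Capn9* (-0.60). Such changes follow from the level of the reference. Of 156 genes named by rule, the 140 that passed kept their sign under the other alternatives run, and 8 of the 16 that did not pass crossed 0, from fitted values of at most 0.33 in size. Of the 156, 7 lost their call with library size alone, 2 with DESeq2, and 62 of their 1872 leave-one-out values lost it. With at least 10 counts in every library compared, which leaves out genes near 0 at one end, fewer genes of the lists were tested, and 8 Paneth products, 10 colonocyte genes, 0 Hox genes and 5 and 3 regional factors (higher in the duodenum and colon) passed, as did 1 and 3 enteroendocrine genes, 3 glycosylation genes higher in the colon, and, of genes higher in the duodenum, 1 of transport, 1 of iron and other absorption, 1 trefoil or gland gene, 1 acinar gene and 0 Reg lectins, and 1 innate gene higher in the colon. Without a filter on low counts 4 Reg lectins and 10 innate genes higher in the colon passed, beside 2 and 5. Secretory factors higher in the duodenum (4) were 7 by DESeq2 or with only the groups compared, and transport genes (5) were 3 with the latter. With library size alone, 2 guanylin axis genes and 1 of iron and other absorption were higher in the colon, beside 4 and 4. The depth of the positive duodenum libraries limits genes of few counts, and a count of 0 there allows 0.246 to 0.337 CPM.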
